A study of Homo sapiens with 4 samples.

Results

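The genes described here are 10 amino acid carriers that the stress response to amino acid shortage is known to act on, namely SLC3A2, SLC7A5, SLC7A1, SLC7A6, SLC1A4, SLC1A5, SLC38A1, SLC38A2, SLC6A9 and SLC43A1. They were taken by name from the authors' deposited table of a comparison between treated and control cells, which holds 8727 genes, and 8 of the 10 have a row there. The cells were HepG2, an established human liver cancer line that the labels call hepatoblastoma. The study has 2 RNA-seq libraries of cells given the solvent DMSO and 2 of cells given 20 µM isoginkgetin, a plant biflavonoid, for 24 h. The time of the DMSO cells is not stated separately, and no genetic change or second agent is named for either group. The series title points to autophagic cell death, and the comparison asks which transcripts differ after the compound.

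Amino acids cross the cell membrane only with the help of carrier proteins, and each carrier takes a set of amino acids. Some carriers exchange one amino acid for another, some move them along with sodium, and some do neither. Many carriers work as heteromers: SLC3A2, a glycoprotein also called CD98 or 4F2hc, brings a light chain of the SLC7 family to the cell surface, and the light chain does the transport. When amino acids run short or the endoplasmic reticulum is under stress, phosphorylation of eIF2α leads to translation of ATF4, a transcription factor that switches on carriers, enzymes of amino acid synthesis and aminoacyl-tRNA synthetases. ATF4 binds, with partners of the C/EBP family, to a composite DNA element, the C/EBP-ATF response element.

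For every gene listed, the table holds 1 mean normalized count for all libraries together, the log2 fold change between the groups, the standard error (SE) of that change, and its p-value before and after adjustment. A gene is listed only where the adjusted p is under 0.05. Positive log2 fold changes are read as more transcript with isoginkgetin, the usual order of treatment over control. The headers do not name that order, so every direction given here rests on this reading. Values per library and total counts per library are not analysed here, and the depth is therefore unknown. The labels do not say whether the 2 libraries of a group came from separate cultures, so the p-values may reflect technical spread alone. Of 19 hepatocyte and HepG2 markers 17 have a row in the authors' deposited table, with mean normalized counts from 442.3 to 157429. Of those listed 4 (21.1%) were higher and 13 (68.4%) lower, beside 22.4% and 21.1% of all genes tested. The rule for named genes takes the 2 with the largest change, AHSG (58729) and FGA (10168), lower at log2 fold changes of −1.17 and −1.64 in the authors' deposited table, while APOA2 (0.54) and GPC3 (0.47), named after their values were seen, were higher there. Of 30 markers of leukocytes, fibroblasts, endothelium, bile duct and skin 9 have a row in the authors' deposited table, all with negative log2 fold changes and with mean normalized counts from 3.14 to 15328, the highest being LYZ. By list, 25.0% to 37.5% of these markers have a row and were lower. Of all genes tested 43.6% have a row and 21.1% were lower. The labels name HepG2 as the only cells of every library, so a row for such a marker does not show that its cell type was present. Whether any other cells were present was not tested.

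Promoter sequences are shown first because ATF4 transcripts rose (below) while the carriers, listed for the stress response, moved in both directions. Because of that choice, the share of carriers with the element searched for is not independent of the list. Whether ATF4 acted on these promoters was not tested. RefSeq promoter windows (GRCh38.p14, from 250 bases before to 50 bases after a transcript start) were found for all 10 carriers, 17 windows in all, and were searched on both strands for TGATGNAA, the core of the C/EBP-ATF response element. The core was found in 5 of the 10 carriers, in 1 window each, and so in 5 of the 17 windows. In the same reference 3.62% of all 35116 windows, and 4.46% of 27305 genes in at least 1 window, hold it. The carriers have more windows per gene than the reference, which raises their share by gene. Positions below are relative to the start of the window with the match. For SLC3A2, SLC38A1, SLC1A4 and SLC1A5 that start lies inside the annotated gene rather than at its first base. The stretches around the matches are given here 5′ to 3′ along the gene's strand with the match in capitals; TTGCATCA and TTACATCA are matches read on the other strand.
SLC3A2, chr11:62881725-62881748, + strand, 37 to 44 bases after the start: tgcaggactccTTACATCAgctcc
SLC38A1, chr12:46266502-46266531, − strand, across the start: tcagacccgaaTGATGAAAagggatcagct
SLC7A1, chr13:29595663-29595692, − strand, 7 to 14 bases after the start: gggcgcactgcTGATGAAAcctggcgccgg
SLC1A4, chr2:64989381-64989410, + strand, across the start: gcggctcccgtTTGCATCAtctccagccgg
SLC1A5, chr19:46784893-46784922, − strand, before the start: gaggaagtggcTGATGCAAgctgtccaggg

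These 5 carriers did not share a direction. Of the 4 with a row, SLC3A2 and SLC38A1 were higher while SLC7A1 and SLC1A4 were lower. The windows of SLC38A2, SLC6A9, SLC43A1 and SLC7A6, all lower, and of SLC7A5 held no match. A match describes letters only, and elements outside these windows were not searched.

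SLC3A2 and SLC6A9 are shown at greater length because they had the most positive and the most negative log2 fold change. The 250 bases before one of the 3 SLC3A2 starts, the one whose window held the match above, also hold TGACNNNGC, the core of the antioxidant response element to which NRF2 binds, shown in capitals. That core was found on either strand in 5 of the 17 windows of the carriers, beside 13.3% of all windows, and in 5 of the 10 carriers, beside 16.1% of all genes with a window. Besides SLC3A2 these were SLC7A1 and SLC7A6, which were lower, and SLC7A5 and SLC1A5, which have no row. The SLC6A9 bases hold neither core, nor CACGTG, the E-box bound by MYC and its partners.
SLC3A2, chr11:62881449-62881698, + strand: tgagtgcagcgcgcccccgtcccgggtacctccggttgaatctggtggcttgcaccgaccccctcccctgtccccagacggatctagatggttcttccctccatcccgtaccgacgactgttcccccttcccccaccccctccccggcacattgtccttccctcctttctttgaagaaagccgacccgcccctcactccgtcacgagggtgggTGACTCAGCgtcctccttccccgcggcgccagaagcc
SLC6A9, chr1:44031463-44031712, − strand: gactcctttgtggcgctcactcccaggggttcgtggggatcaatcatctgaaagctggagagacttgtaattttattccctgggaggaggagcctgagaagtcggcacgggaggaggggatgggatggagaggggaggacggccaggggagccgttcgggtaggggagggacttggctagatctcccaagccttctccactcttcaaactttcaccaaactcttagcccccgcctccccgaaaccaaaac

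As a group the carriers fell more often than they rose. Of the 10 carriers, the authors' deposited table gives 2 (20%) as higher, SLC3A2 and SLC38A1, and 6 (60%) as lower, SLC6A9, SLC1A4, SLC43A1, SLC38A2, SLC7A6 and SLC7A1. SLC7A5 and SLC1A5 have no row and therefore no value. Of all 20024 genes tested, 43.6% passed the adjusted p of 0.05, with 22.4% higher and 21.1% lower. Genes with many counts pass more easily, and 7 of the 8 carriers lay above the median mean normalized count of the table (741.4). The median log2 fold change of the 8 carriers was −0.32, beside 0.21 for all genes in the table, and the values ran from −1.11 to 0.92.

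**Figure D1:**
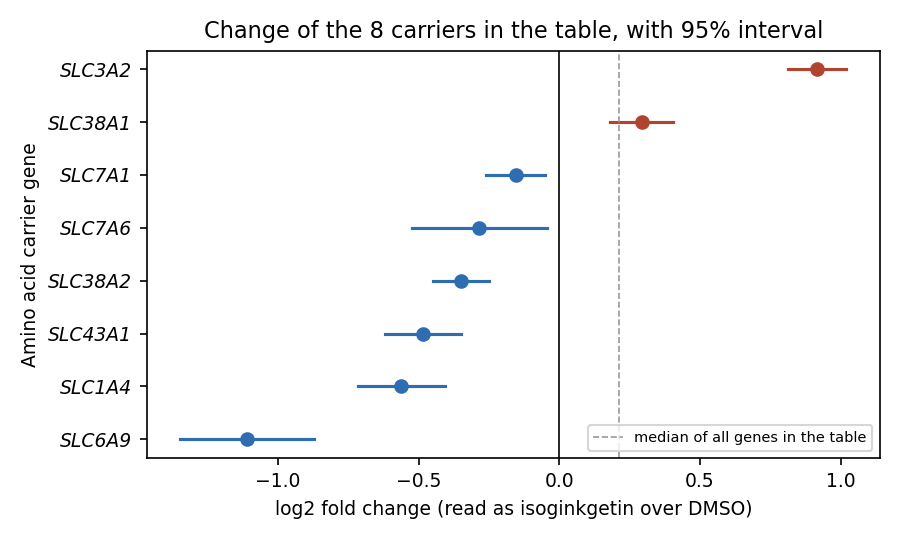
Log2 fold change of the 8 carriers with a row in the authors' deposited table (points) with 95% intervals from the SE (bars); red marks higher, blue lower, and the dashed line is the median of the table (0.21). SLC3A2 stands apart on the right at 0.92 and SLC6A9 on the left at −1.11, while the intervals of 5 carriers, from SLC1A4 at −0.56 to SLC7A1 at −0.15, overlap with their neighbours.

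SLC3A2, the heavy chain shared by the heteromeric exchangers, was the carrier that rose most. The authors' deposited table lists it with a mean normalized count of 8948 and with 0.92 ± 0.05 (SE) as log2 fold change (adjusted p = 3.77e-65), which is 1.89-fold with a 95% interval from 1.76 to 2.03. It ranked 197th of the 8727 genes by p-value, ahead of the other 7 carriers. Its change was larger than that of 68.8% of the higher genes. With equal group sizes and the fold change taken as given, the mean and the fold change together imply group means of about 6197 normalized counts in DMSO and 11699 with isoginkgetin. The gene lies on chromosome 11 (62856102 to 62888875, + strand, GRCh38), and no other gene of the GENCODE 29 basic set overlaps its exons.

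The light chains that pair with SLC3A2 were lower or have no row. For SLC7A6, the y+LAT2 light chain, which exchanges cationic for neutral amino acids, the authors' deposited table gives −0.28 ± 0.12 (SE; log2 fold change, adjusted p = 0.0400) and a mean normalized count of 690.1. This is the weakest call of the 8, with an interval from −0.52 to −0.04. The value is also uncertain because 53.0% of the exon bases of SLC7A6 are shared with SLC7A6OS on the opposite strand and the libraries carry no strand; SLC7A6OS itself has no row. The authors' deposited table has SLC7A10, the light chain of the small neutral amino acid exchanger Asc-1, lower at −1.30 ± 0.15. No other listed light chain has a row there, which leaves SLC7A5 (LAT1, the carrier of large neutral amino acids) and SLC7A11 (the cystine carrier xCT) without a value. Of the 10 heteromeric chains listed, heavy and light, 1 was higher (10%) and 2 were lower (20.0%), beside 22.4% and 21.1% of all genes tested.

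The sodium-coupled glutamine and alanine carriers SLC38A1 and SLC38A2, neighbouring paralogs on chromosome 12, went in opposite directions. The authors' deposited table lists SLC38A1 (SNAT1) with a mean normalized count of 8054 and a log2 change of 0.29 ± 0.06 (SE, adjusted p = 1.12e-06), a 1.23-fold rise with an interval from 1.13 to 1.32. SLC38A2 (SNAT2), the carrier known for its induction when amino acids are withdrawn, is listed lower by the authors' deposited table, at −0.35 ± 0.05 (SE, adjusted p = 2.51e-11) and a mean normalized count of 22691. The intervals of the pair, 0.18 to 0.41 and −0.45 to −0.25, lie on either side of 0. In implied normalized counts SLC38A1 went from about 7237 to 8871, and SLC38A2 from about 25430 to 19952. SLC38A2 thus fell by 5478 implied counts, close to the 5502 by which SLC3A2 rose, from a higher starting level. SLC38A1 spans 46183063 to 46269119 and SLC38A2 46358189 to 46372867, both on the − strand of GRCh38.

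SLC6A9, the glycine carrier GlyT1, fell most. Its entry in the authors' deposited table is a log2 change of −1.11 ± 0.12 (SE, adjusted p = 2.14e-19) and a mean normalized count of 746.0. The implied mean fell by 53.7%, from about 1020 to 472.4 normalized counts, and the ratio was 0.46 with an interval from 0.39 to 0.55. It was the only carrier of the 8 at 2-fold or more, and its change was larger than that of 70.4% of the lower genes. Of its exon bases 7.67% are shared with CCDC24 on the opposite strand, which the authors' deposited table gives as lower too (−0.95 ± 0.36); how far reads of one entered the other was not tested. SLC6A9 lies on chromosome 1 (43991500 to 44031386, − strand, GRCh38).

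SLC1A4, the ASCT1 exchanger of serine, alanine and cysteine, is listed by the authors' deposited table with a mean normalized count of 2061 and a log2 change of −0.56 ± 0.08 (SE, adjusted p = 5.06e-12). Its implied mean fell by 32.3%, from about 2457 to 1664 normalized counts. The related glutamine exchanger ASCT2, encoded by SLC1A5, has no row. SLC43A1, which encodes LAT3, a carrier of large neutral amino acids that needs neither sodium nor SLC3A2, has in the authors' deposited table a mean normalized count of 2915 and a log2 change of −0.48 ± 0.07 (SE, adjusted p = 1.13e-11). It fell by 28.5%, from about 3400 to 2429 implied normalized counts. Of its 2 windows 1 holds an E-box, before the start (chr11:57515798-57515825, − strand, in capitals), as 7.26% of all windows do: agcgggcgagtCACGTGcgcgtgaaact. The E-box was found in 3 of the 10 carriers, beside 8.77% of all genes with a window. SLC7A5 and SLC1A5, which have no row, also hold it. SLC1A4 lies on chromosome 2 (64988490 to 65023865, + strand) and SLC43A1 on chromosome 11 (57484534 to 57515786, − strand) of GRCh38.

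SLC7A1, the CAT1 carrier of arginine and lysine, had the log2 fold change nearest to 0. This place is not resolved, because the intervals of SLC7A6 and, in size, of SLC38A1 (0.18 to 0.41) overlap that of SLC7A1 (−0.26 to −0.05). The authors' deposited table gives a mean normalized count of 7906 and a log2 change of −0.15 ± 0.05 (SE, adjusted p = 0.00984), by which the implied mean fell by 10.2%, from about 8329 to 7483 normalized counts. Only 0.260% of the lower genes had a smaller change. Its relative SLC7A2, named after its value was seen, stands in the authors' deposited table at −0.50 ± 0.07. SLC7A1 lies on chromosome 13 (29509410 to 29595688, − strand) and SLC7A6 on chromosome 16 (68264516 to 68301823, + strand) of GRCh38.

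**Figure D2:**
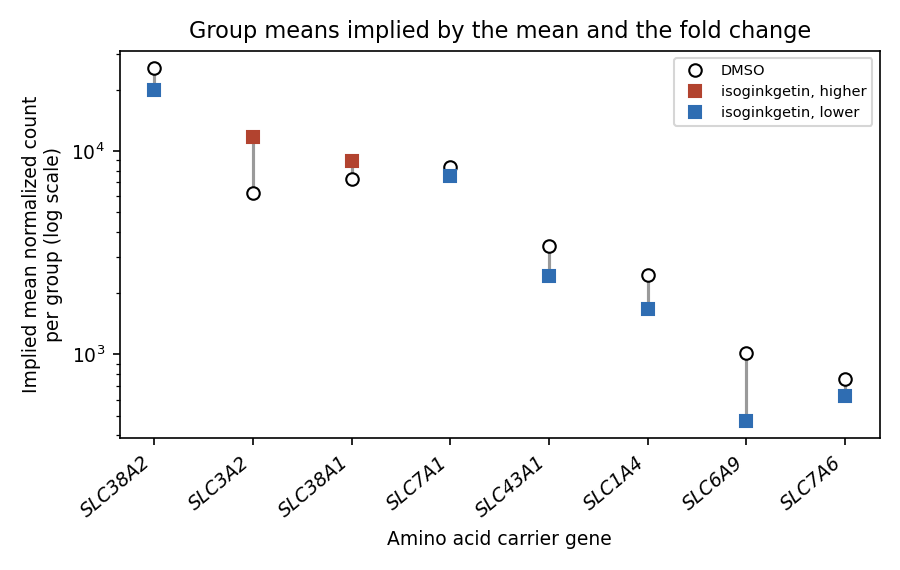
Mean normalized count per group (log axis) implied by the authors' mean over the libraries and their fold change, for DMSO (open circles) and isoginkgetin (squares, red where higher and blue where lower); no error can be drawn, because values per library are not used. SLC38A2 is the carrier with most counts in both groups, and SLC3A2 goes from about 6197 to 11699, with the fold change read as isoginkgetin over DMSO; with the opposite order the 2 values of each carrier would change places.

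In order of log2 fold change, the 95% intervals of neighbouring carriers overlapped from SLC1A4 through SLC43A1, SLC38A2 and SLC7A6 to SLC7A1, so that this order is not resolved. SLC6A9 below them, and SLC38A1 and SLC3A2 above them, were each separated from the next carrier by intervals that did not overlap. Per kilobase of exon (GENCODE 29 basic set, which may not be the authors' annotation) the mean level was 4533 normalized counts for SLC38A2 and 3372 for SLC3A2. SLC43A1 (1078) and SLC7A1 (1076) followed on the same per-kilobase scale, with SLC38A1 at 863.5 and SLC1A4 at 439.2. The lowest were SLC6A9 at 172.9 and SLC7A6 at 108.6 normalized counts per kilobase. These levels have no error, so near ones cannot be ordered.

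Most of the changes were small. At an adjusted p under 0.001, which 29.2% of all genes tested passed, 6 of the 10 carriers were called, 2 higher and 4 lower. Bonferroni correction, passed by 21.7% of genes, left the same 6, without SLC7A1 and SLC7A6. Of the 8 carriers with a row, only SLC3A2 and SLC6A9 changed by at least 1.5-fold, and SLC6A9 alone by at least 2-fold. These are 2 and 1 of the 10 listed. Of all genes tested, 26.2% were called at an adjusted p under 0.05 with at least 1.5-fold, and 13.7% with at least 2-fold. Fold changes of genes without a row, SLC7A5 and SLC1A5 among them, are unknown. Measured from the median of the table, SLC38A1 stood at 0.081 on the log2 scale (95% interval −0.031 to 0.19, which includes 0). SLC7A1 stood at −0.37 (−0.47 to −0.26) from the same median. The table holds only genes with an adjusted p under 0.05, so its median is not that of all genes tested.

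Other carriers of amino acids in the table were mostly lower as well. Of 36 further carriers listed for the plasma membrane 10 have a row, and all 10 were lower (median −1.13 on the log2 scale). The share with a row, 27.8% of those listed, is under the 43.6% of all genes tested, and the share lower, also 27.8%, is near the 21.1% of all genes. Among these, the authors' deposited table has the largest changes for SLC38A11 at −3.44 ± 0.32 (SE) and SLC1A2, a glutamate carrier, at −2.34 ± 0.15. SLC38A4 has −1.48 ± 0.66 there, at a mean normalized count of only 28.2. SLC16A10, which carries aromatic amino acids, has −1.29 ± 0.31 in the authors' deposited table. The count depends on which carriers were listed. From the SLC6 family SLC6A6 (−0.57 ± 0.08) and SLC6A14 (−0.48 ± 0.14) were listed. The 3 higher genes of that family, SLC6A13, SLC6A12 and SLC6A2 (values below), were not. Nor were SLC6A4 (−1.15 ± 0.20) and SLC6A8 (−0.85 ± 0.09), lower in the authors' deposited table. Of 7 lysosomal carriers 4 have a row and all 4 were lower (57.1% of those listed, beside 21.1%). They are, with their changes by the authors' deposited table, the arginine sensor SLC38A9 (−0.65 ± 0.18), the cystine exporter CTNS (−0.48 ± 0.13), SLC36A1 (−0.44 ± 0.16) and MFSD12 (−0.31 ± 0.12). Mitochondrial carriers went both ways, 5 higher and 4 lower among the 9 of 12 with a row (41.7% and 33.3% of those listed, beside 22.4% and 21.1%). At a mean normalized count of 100 or more, the largest changes in the authors' deposited table were those of 4 genes. They are the glutamate carrier SLC25A22 (0.99 ± 0.10), SFXN2 (−1.41 ± 0.13), SLC25A29 (−0.90 ± 0.20) and SFXN3 (−0.77 ± 0.11). Below that count SLC25A18 has a larger change, 3.45 ± 0.94, at a mean of 20.7. Among all 153 SLC-named genes of the table, of 347 in RefSeq, 35.3% were higher (54 higher, 99 lower), beside 51.5% of all genes in the table. Of the 347, 44.1% have a row, near the 43.6% of all genes tested. This count was chosen after the data were seen, and whether amino acid carriers differed from other SLC genes was not tested.

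**Figure D3:**
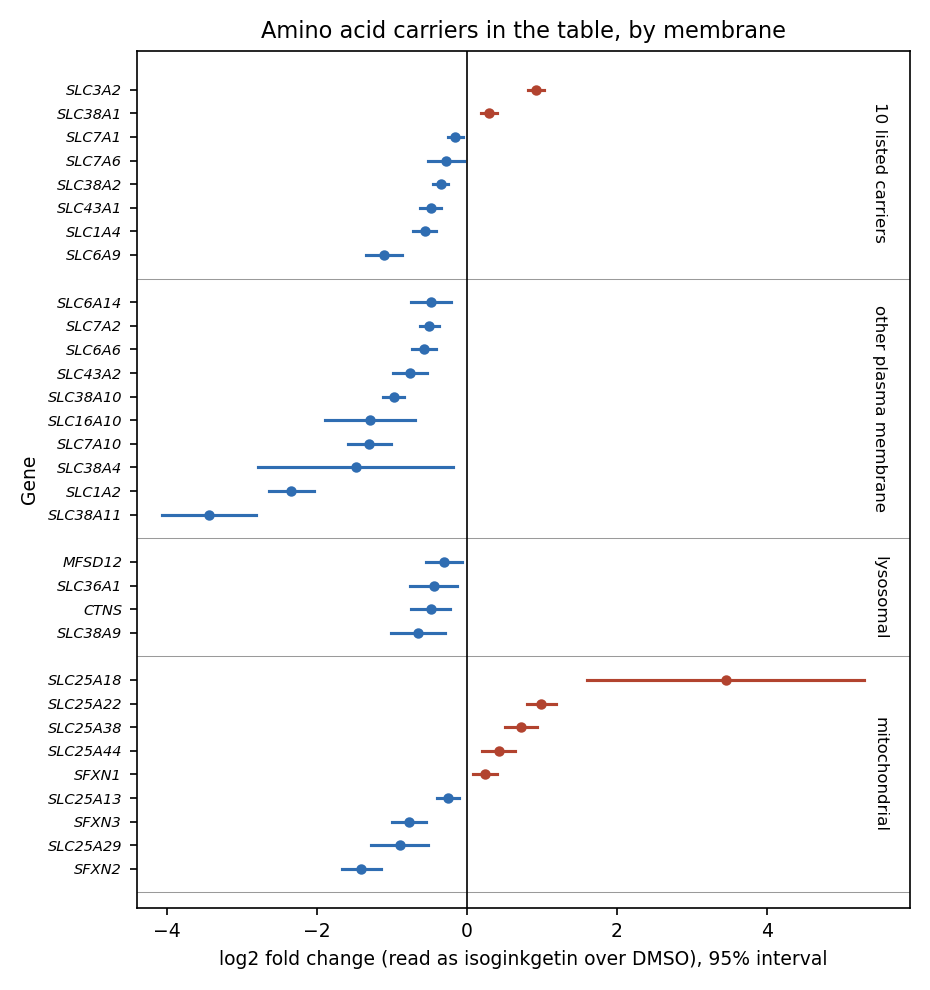
Log2 fold change with 95% interval for each amino acid carrier with a row in the authors' deposited table, grouped by the membrane it was listed for; red marks higher and blue lower. Among carriers listed for the plasma membrane or lysosome, SLC3A2 and SLC38A1 are the 2 to the right of 0. The higher SLC6A13, SLC6A12 and SLC6A2 and the lower SLC6A4 and SLC6A8 were not listed and are not drawn.

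The regulators of the response were mostly higher. The list of the amino acid and stress response has 22 genes, and of the 19 with a row 17 were higher (77.3% of those listed, beside 22.4% of all genes tested) and 2 lower (9.09%, beside 21.1%), with a median of 0.73. The authors' deposited table puts ATF4 itself at 0.73 ± 0.05 (SE, log2 scale, adjusted p = 1.08e-54). Among genes of this list with a mean normalized count of 100 or more, its largest changes were PPP1R15A, which directs the removal of phosphate from eIF2α (2.40 ± 0.08), ATF3 (2.02 ± 0.13), the eIF2α kinase EIF2AK3, or PERK (1.80 ± 0.10) and NUPR1 (1.23 ± 0.09). Below that count, CHAC1, an enzyme that breaks down glutathione, has 1.68 ± 0.94 in the authors' deposited table. For TRIB3, a target and inhibitor of ATF4, the authors' deposited table gives 0.65 ± 0.05. The 2 lower genes by the authors' deposited table, named after their values were seen, were EIF2AK4, the kinase GCN2 that senses uncharged tRNA (−0.84 ± 0.08), and EIF2AK1 (−0.73 ± 0.07).

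Among the 21 enzymes listed for amino acid synthesis 14 have a row, with 10 higher (47.6% of those listed, beside 22.4% of all genes tested) and 4 lower (19.0%, near the 21.1% of all genes), and a median of 0.45. The authors' deposited table gives 1.38 ± 0.12 (SE) for CTH, which makes cysteine, 1.09 ± 0.16 for asparagine synthetase ASNS, −1.28 ± 0.15 for CBS, the step before CTH, and −0.91 ± 0.24 for PYCR3, an enzyme of proline synthesis. The list of glutamine users and glutathione makers has 11 genes, and 6 of the 7 with a row were higher (54.5% of those listed, beside 22.4%; median 0.77). By the authors' deposited table GCLM (1.61 ± 0.08), GCLC (1.46 ± 0.07) and the hexosamine enzyme GFPT1 (1.54 ± 0.06) led them. The pyrimidine enzyme CAD was the exception there (−0.99 ± 0.07).

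Aminoacyl-tRNA synthetases of the cytosol, which load amino acids on tRNA, were split into 10 higher and 6 lower among the 16 of 20 with a row (median 0.40), or 50.0% and 30.0% of those listed beside 22.4% and 21.1% of all genes tested. The authors' deposited table gives 0.86 ± 0.07 (SE) for GARS1, which loads glycine, 0.77 ± 0.06 for SARS1, 0.70 ± 0.07 for RARS1 and −0.75 ± 0.05 for IARS1, which load serine, arginine and isoleucine. For glycine, the synthetase GARS1 thus rose while the carrier SLC6A9 fell. Most synthetases with a row were higher and most carriers with a row lower, and a link within this pair was not tested. Genes by which mTORC1 senses amino acids were 11 higher and 9 lower among 20 of 37 (median 0.38). These shares, 29.7% and 24.3%, lie near the 22.4% and 21.1% of all genes tested. Those with the largest changes in the authors' deposited table were FLCN (1.37 ± 0.10), the Rag GTPase RRAGC (1.33 ± 0.18), LAMTOR3, which holds the Rag GTPases at the lysosome (1.10 ± 0.12), and KICS2, a part of the KICSTOR scaffold (−1.65 ± 0.35).

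**Figure D4:**
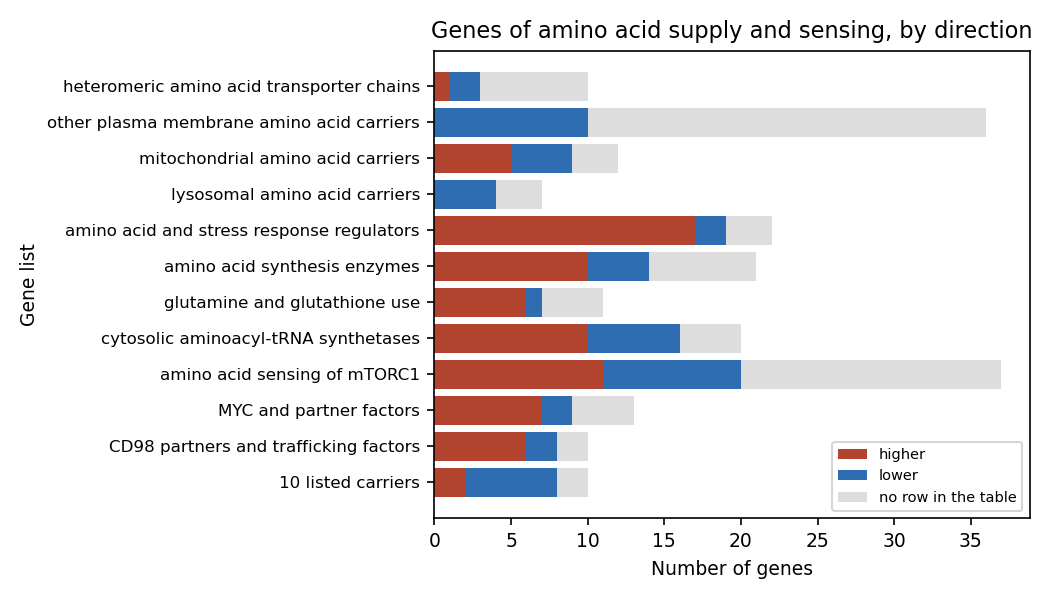
Number of genes in each list that were higher (red), lower (blue) or have no row (grey) in the authors' deposited table; the lists share some genes. The bar of the 10 carriers holds 2 higher and 6 lower genes, and that of the stress response regulators 17 higher and 2 lower.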

How the data were processed

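Polyadenylated RNA of HepG2 cells was sequenced from 2 DMSO and 2 isoginkgetin libraries without strand, per the labels' protocols. Per the submitters' processing notes, STAR 2.7.0 and featureCounts were used, and hg19 and mm10 are named as builds with no role for either. The authors deposited 1 table with the columns of a DESeq2 results table; its version, formula and group order: not given in the sources used here. Its mean normalized count is an authors' signal, deposited as a mean over the libraries after scaling. The log2 fold changes and SEs are the authors' values on the log2 scale. The p-values and adjusted p-values are the authors' too, and were not recomputed.

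The table holds genes with an adjusted p under 0.05. The number tested, 20024, was recovered as adjusted p times rank over p, a step checked on simulated data. The ratio of fold change over SE to the normal deviate of the p-value was between 0.974 and 0.996 for the 8 carriers. Any shrinkage of their fold changes was therefore slight. Shrinkage for other genes, such as those with low counts, was not examined. Intervals are fold change ± 1.96 SE. Group means were implied from the mean and the fold change. Depth per library is unknown, so precision is known only through the SE.

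The carriers and 11 gene lists were chosen with earlier results of these data known. A nucleoside carrier listed with the lysosomal carriers in error was removed after its value was seen. List genes were matched by symbol, GENCODE 29 name or RefSeq synonym (20 entries by an older name). Named are all 10 carriers, up to 4 genes per list (2 per marker list) with the largest absolute change above a minimum mean normalized count of 100, and ATF4, TRIB3, ASNS, SLC7A11, SLC3A1 and MYC. SLC3A1 has no row. Python 3.11.15, pandas 2.3.3 and scipy 1.17.1 were used. Alternatives were stricter thresholds, fold minimums, a filter on low values and centring.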

Additional observations from a re-analysis of the deposited data

How the results depend on the processing

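The count of carriers was 2 higher and 6 lower, and was the same with a mean normalized count of at least 100. Centring on the median of the table, a uniform shift, turned no sign, but the centred interval of SLC38A1 (−0.031 to 0.19) includes 0. That median covers called genes alone, so the shift does not centre on all genes tested. The count fell to 1 higher and 1 lower at 1.5-fold or more, and to 0 higher and 1 lower at 2-fold or more, since few carriers changed that much. SLC7A1 (−0.15) and SLC7A6 (−0.28) lost their call both at an adjusted p under 0.001 and with Bonferroni correction, and the other 6 carriers kept theirs in both. Centring lowers every log2 fold change by 0.21, to 0.70 for SLC3A2, 0.081 for SLC38A1, −0.37 for SLC7A1, −0.50 for SLC7A6, −0.56 for SLC38A2, −0.70 for SLC43A1, −0.78 for SLC1A4 and −1.32 for SLC6A9. Of the 11 gene lists, 8 had more higher and 3 more lower members; the majority turned for the mitochondrial carriers with Bonferroni correction (2 higher, 3 lower). It was lost, with equal numbers or no gene left, in 1 list at an adjusted p under 0.001, 2 with Bonferroni correction, 3 at 1.5-fold, 3 at 2-fold and 1 at a mean count of at least 100. These were the heteromeric chains (3 settings), the mitochondrial carriers (3), the lysosomal carriers (2), the synthetases (0 and 0 at 2-fold) and the CD98 partners (1 and 1 at 1.5-fold). No paired analysis was possible because the table holds no value per library, and for the same reason leaving out a library, another normalization, a count filter and a second count test were not run. The authors' thresholds and unknown depth limit what can be said of SLC7A5 and SLC1A5: they have no row, which does not show that they were unchanged.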

Other observations

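MYC, a transcription factor known to raise several amino acid carriers, is listed by the authors' deposited table at 0.9968 ± 0.05 (SE, log2 scale, adjusted p = 2.56e-73). Of 13 genes of MYC and its partners 9 have a row, 7 higher (53.8% of those listed, beside 22.4% of all genes tested) and 2 lower (15.4%, beside 21.1%), with a median of 0.41. The authors' deposited table gives the largest changes to MLXIPL, the carbohydrate-response factor ChREBP (−2.18 ± 0.07), the MYC antagonist MXD1 (1.999 ± 0.11), MYCL (1.32 ± 0.33) and MAX (1.19 ± 0.10). Of 10 genes listed as partners of CD98 or factors of carrier trafficking 8 have a row, 6 higher (60.0%, beside 22.4%) and 2 lower (20.0%, near the 21.1% of all genes tested), with a median of 0.27. The authors' deposited table gives 1.66 ± 0.09 for STX3, 0.57 ± 0.13 for LGALS3, which binds CD98, 0.39 ± 0.08 for ARF6 and −0.93 ± 0.13 for the ubiquitin ligase NEDD4.

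Of the 19 genes of the SLC6 family, to which SLC6A9 belongs, 8 have a row, 3 higher and 5 lower. The 42.1% with a row, and the 26.3% lower, are near the 43.6% and 21.1% of all genes tested. The share higher was 15.8%, beside 22.4%. The 3 higher ones carry GABA, betaine or noradrenaline rather than glycine, and were named after their values were seen. They are SLC6A13 (6.38 ± 1.03), SLC6A12 (1.79 ± 0.55) and SLC6A2 (1.28 ± 0.46) by the authors' deposited table. Their mean normalized counts were 54.5, 39.6 and 59.5, under the minimum of 100 used for naming list genes. In the SLC38 family SLC38A1 was the 1 higher gene among the 6 of 12 with a row (50.0%, beside 43.6% of all genes tested). The higher share was 8.33%, beside 22.4%, and the lower share 41.7%, beside 21.1%.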
